A study of Mus musculus with 8 samples.

Results

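Acetylation of histone H3 at lysine 27 (H3K27ac) and lysine 9 (H3K9ac) was compared in small intestinal crypt epithelium of fasted C57BL/6J mice that received no tetracycline. The mice were male, 9 weeks old and fasted for 24 h, and no transgene or mutation is named for them. Each mark is 1 sample, profiled by CUT&Tag, in which an antibody tethers a transposase that tags the DNA around a modified histone. The H3K27ac sample lists a mouse IgG and the H3K9ac sample a rabbit IgG beside its antibody, so the mark cannot be told apart from its antibody pair. Each sample has 2 peak lists, called list 1 and list 2 here, and whether these come from separate mice is not given in the sources used here. The spread between lists may therefore be technical. The other 3 states of the study (fed without tetracycline, and fed or fasted with tetracycline for 21 days) are used only to see whether a pattern recurred.

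Overlapping peaks of the 4 lists (at least 1 bp, chromosomes 1 to 19, X and Y, GRCm38) were merged, which gave 179869 regions, against 348617 when all 16 lists of the series are merged. A region carried both marks when all 4 lists had a peak in it. It carried H3K27ac only when both H3K27ac lists and no H3K9ac list had one, and H3K9ac only in the reverse case. The 3 classes held 8599, 13330 and 1332 regions. A class asks for all 4 lists at once, so leaving out 1 list enlarged it: regions with both marks numbered 13942 without H3K9ac list 2, those with H3K27ac only 31894 without H3K27ac list 1 and 46463 without H3K27ac list 2. Those with H3K9ac only numbered 18154 without H3K9ac list 1, 76868 without H3K9ac list 2 and 2244 without H3K27ac list 2. A peak is a stretch of enriched signal over many cells, so 2 marks in 1 region need not sit on the same chromosome copy or in the same cell.

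Acetylated histone tails mark chromatin that is open to transcription, and bromodomain proteins bind them. H3K27ac, written mainly by CBP and its close relative, is found at active promoters and at active enhancers, the distant elements that raise a promoter's output. H3K9ac, written mainly by GCN5 and PCAF, is known chiefly from active promoters. Crypts hold the stem cells, dividing progenitors and Paneth cells of the intestine, and the progenitors feed both the absorptive and the secretory lineage.

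The start sites of 6 genes show the kinds of sequence on which the classes differed. They were picked after values were seen, 2 for each class, from the 10 highest-ranked genes of that class. Each run is 300 bases from RefSeq (GRCm38.p6), 250 before to 50 after the start, read 5′ to 3′ on the gene's strand, with every CG pair in capitals because CG content differed between the classes. Elf3 (chr1:135258423-135258722, minus strand, 12 CG pairs) and Vil1 (chr1:74409134-74409433, plus strand, 5) carried both marks. Entpd8 (chr2:25080073-25080372, plus strand, 4) and Sp1 (chr15:102406066-102406365, plus strand, 19) carried H3K27ac only. Mindy3 (chr2:12419411-12419710, minus strand, 11) and Tubgcp5 (chr7:55793875-55794174, plus strand, 18) carried H3K9ac only.
Elf3: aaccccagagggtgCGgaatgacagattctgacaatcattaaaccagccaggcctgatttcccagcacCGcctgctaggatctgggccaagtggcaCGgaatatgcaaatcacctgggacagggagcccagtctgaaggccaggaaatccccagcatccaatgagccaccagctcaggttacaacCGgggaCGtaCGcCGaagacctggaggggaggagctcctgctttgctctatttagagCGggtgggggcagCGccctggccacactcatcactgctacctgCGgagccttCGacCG
Vil1: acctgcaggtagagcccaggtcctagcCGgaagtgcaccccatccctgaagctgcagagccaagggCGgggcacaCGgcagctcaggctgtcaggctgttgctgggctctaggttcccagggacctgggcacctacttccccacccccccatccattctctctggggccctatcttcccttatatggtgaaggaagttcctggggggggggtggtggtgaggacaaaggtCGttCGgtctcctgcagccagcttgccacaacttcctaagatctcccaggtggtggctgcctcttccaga
Entpd8: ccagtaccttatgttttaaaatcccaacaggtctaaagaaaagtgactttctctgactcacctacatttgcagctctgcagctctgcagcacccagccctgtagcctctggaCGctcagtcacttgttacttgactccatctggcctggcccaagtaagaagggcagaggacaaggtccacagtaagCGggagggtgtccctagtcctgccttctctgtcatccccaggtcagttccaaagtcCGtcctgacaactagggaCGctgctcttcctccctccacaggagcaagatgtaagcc
Sp1: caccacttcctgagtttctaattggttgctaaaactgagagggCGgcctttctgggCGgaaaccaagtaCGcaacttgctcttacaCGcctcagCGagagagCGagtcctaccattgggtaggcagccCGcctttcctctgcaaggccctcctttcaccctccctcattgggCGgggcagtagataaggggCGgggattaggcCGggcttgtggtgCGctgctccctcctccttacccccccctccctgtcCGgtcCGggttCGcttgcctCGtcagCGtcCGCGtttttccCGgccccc
Mindy3: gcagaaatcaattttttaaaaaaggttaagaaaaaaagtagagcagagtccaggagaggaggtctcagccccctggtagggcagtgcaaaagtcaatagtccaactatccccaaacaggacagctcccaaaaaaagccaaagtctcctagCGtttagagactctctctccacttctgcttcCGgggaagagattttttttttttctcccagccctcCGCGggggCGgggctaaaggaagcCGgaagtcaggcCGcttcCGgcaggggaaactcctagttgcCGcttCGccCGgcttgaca
Tubgcp5: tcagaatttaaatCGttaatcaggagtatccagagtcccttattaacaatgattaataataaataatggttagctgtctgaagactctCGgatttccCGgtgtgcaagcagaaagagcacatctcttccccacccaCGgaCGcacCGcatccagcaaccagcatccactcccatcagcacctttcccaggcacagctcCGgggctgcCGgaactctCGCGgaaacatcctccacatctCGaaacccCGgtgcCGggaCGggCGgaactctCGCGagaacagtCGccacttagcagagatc

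The runs also show how much starts vary within a class, since the Sp1 start has 19 CG pairs and the Entpd8 start 4. The epithelial genes Elf3 and Vil1 carried both marks over starts with few CG pairs, below the median of 23 for starts of that class.

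The 4 lists were unequal. H3K27ac lists 1 and 2 held 68545 and 55415 peaks, and H3K9ac lists 1 and 2 held 99050 and 35889. H3K9ac list 1 had the narrowest peaks (median 423 bp) and 17.2% of them were exactly 200 bp wide, against 11.8% in H3K27ac list 1, 1.32% in H3K9ac list 2 and 0.0036% in H3K27ac list 2. The part of these narrow peaks in the results below was not tested. Read depth is not known for any list, and a region without a peak is one in which none was called. The label of epithelium was checked at gene starts: Vil1, Epcam, Cdh1, Krt8, Krt18 and Cdx2 each had a peak in all 4 lists. None of 5 immune markers (Ptprc, Cd3e, Cd79a, Itgam, Csf1r) and none of the 6 stromal markers (Col1a1, Col3a1, Pdgfra, Pecam1, Des, Myh11) did. Cd3e, Itgam, Col3a1, Pecam1, Des and Myh11 had no peak at the start in any list, and the part of other cells in the results was not tested.

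Regions with both marks were wide, high in all lists and mostly at gene starts. Of all regions, 4.78% carried both marks, 7.41% H3K27ac only and 0.741% H3K9ac only, and 41.9% were seen in H3K9ac list 1 alone. Within 1 kb of a protein-coding gene start (either gene end where no start was listed) lay 69.4% of the regions with both marks (5965), 6.55% of those with H3K27ac only (873) and 19.1% of those with H3K9ac only (255), against 8.67% of all regions. Regions with H3K27ac only lay instead inside genes (52.2%) or between them (41.3%). In 8322 of the 8599 regions with both marks (96.8%), each H3K27ac list overlapped each H3K9ac list directly. At least 1 direct overlap between the marks in every such region follows from the merging rule.

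**Figure D1:**
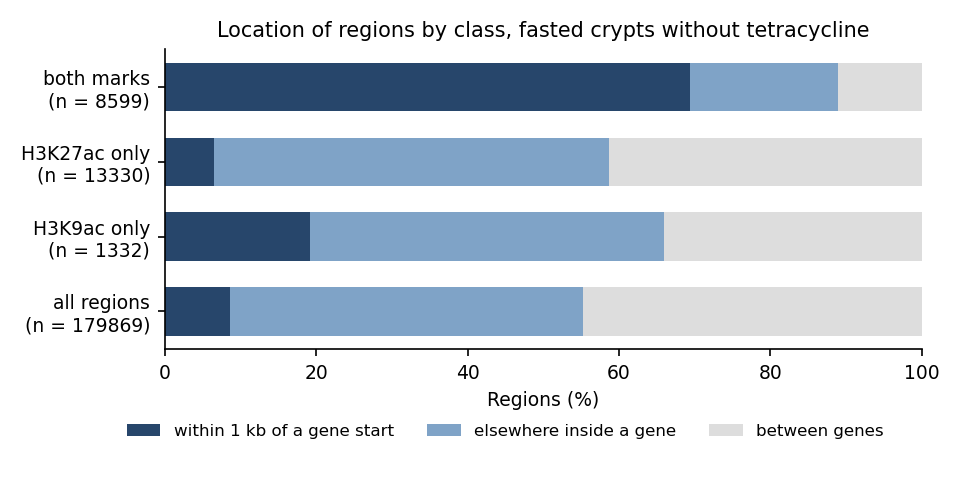
Share of regions (%, horizontal axis) that lay within 1 kb of a protein-coding gene start, elsewhere inside a gene or between genes, for each class and for all regions. Regions with both marks stand apart with 69.4% at gene starts, against 6.55% for H3K27ac only, 19.1% for H3K9ac only and 8.67% for all regions.

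The classes also differed in width and rank. The median width was 2074 bp with both marks, 1086 bp with H3K27ac only and 697 bp with H3K9ac only. Because the authors' score has no stated unit, each peak was given its percentile, the share of peaks of its own list that score no higher, and a region or gene start took that of its highest peak. In regions with both marks the median H3K27ac percentile was 86.7 in list 1 and 82.5 in list 2, and the median H3K9ac percentile was 81.1 and 84.4. In regions with H3K27ac only the H3K27ac medians were lower, 61.7 and 57.7. In regions with H3K9ac only the H3K9ac medians were 42.2 and 41.0, below the middle of their lists. Single-mark regions were thus lower in rank than shared ones for the mark they had, most of all for H3K9ac. The highest peak was taken over a wider stretch in shared regions, and the part of this in the ranks was not tested.

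Whether the share at starts orders H3K9ac only above H3K27ac only depended on the H3K9ac lists. Without H3K9ac list 1 the shares were 6.09% and 11.6%, and without H3K9ac list 2 they were 3.13% and 11%, so the order turned. Without H3K27ac list 2 they were 34.9% and 4.35%. Regions with both marks came first in each of these cases, with 55.7%, 51.9% and 68.6%.

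How often a region of one mark had the other depended on place. Of the 31111 regions with H3K27ac in both lists, 27.6% had H3K9ac in both lists, 29.5% in 1 list and 42.8% in neither. Of the 11078 regions with H3K9ac in both lists, 77.6% had H3K27ac in both, 10.4% in 1 and 12.0% in neither. Both shares have the same 8599 regions as numerator, so they differ as the 2 totals do, and those follow from how well the lists of each mark overlap. With H3K9ac list 2 alone (list 1 left out) the shares were 40.1% of H3K27ac regions and 36.8% of 33978 H3K9ac regions. With H3K9ac list 1 alone they were 44.6% and 14.5% of 95884, so the order turned. At gene starts H3K9ac accompanied H3K27ac in 65.5% of 9111 regions, and H3K27ac accompanied H3K9ac in 86.9% of 6868. Away from starts H3K9ac accompanied 12.0% of 22000 H3K27ac regions, and H3K27ac accompanied 62.6% of 4210 H3K9ac regions. The 62.6% became 22.3% without H3K9ac list 1 and 7.87% without H3K9ac list 2, and the 12.0% became 25.1% and 30.3%. Without H3K27ac lists 1 and 2 the 12.0% became 6.98% and 4.89%. Within each mark the share stayed higher at starts than away from them with any 1 of the 4 lists left out. H3K27ac without any H3K9ac was the commonest state of H3K27ac away from starts, at 56.6%, and a rare one at starts, at 9.58%.

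The shares at starts and away were also taken at similar rank. Regions were put in 10 bins by H3K27ac percentile, taking the lower of the 2 lists. In the lowest bin (percentile 10 or below), H3K9ac was in both lists for 41.5% of regions at starts and for 3.51% away from them. In the highest bin (above 90) it was 79.7% at starts and 33.4% away. Even the highest-ranked distant H3K27ac regions thus had H3K9ac in both lists less often than the lowest-ranked ones at starts. The share with H3K9ac in neither list was alike, 23.0% in each of these bins. In the other direction the places came close together at high rank: in the highest bin of H3K9ac percentiles, H3K27ac was in both lists for 96.2% of regions at starts and 91.1% away, against 71.7% and 45.0% in the lowest bin.

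**Figure D2:**
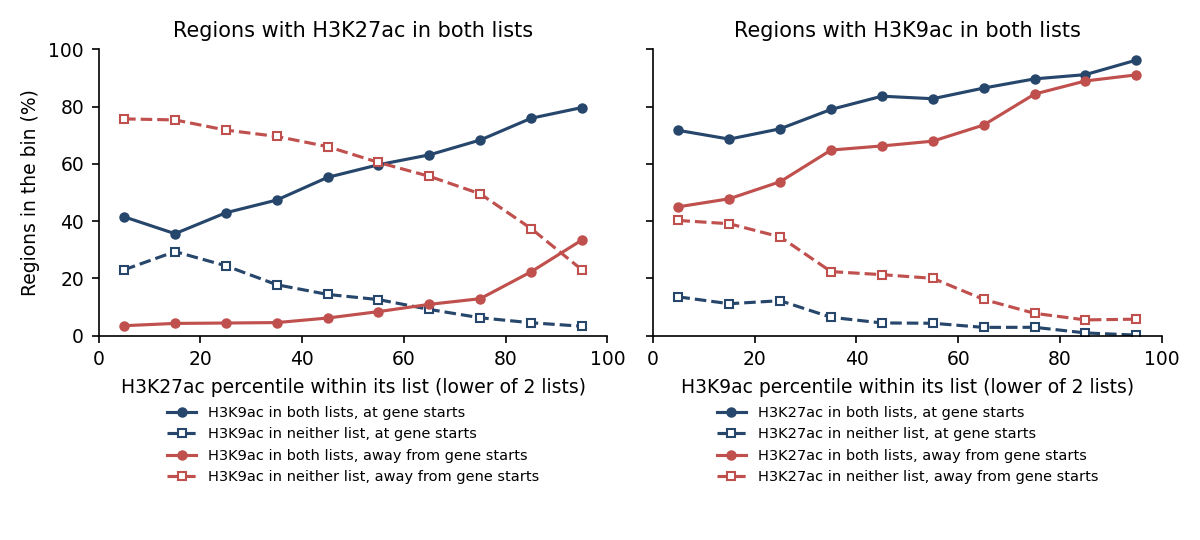
Share of regions (%, vertical axis) in which the other mark was in both lists (filled circles) or in neither (open squares), in 10 bins of the within-list percentile of the mark that is present, at gene starts and away from them. The left panel takes the 31111 regions with H3K27ac in both lists, where the highest bin reached 79.7% at starts and 33.4% away, and the right panel takes the 11078 with H3K9ac in both lists, where it reached 96.2% and 91.1%.

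Where both marks were present, H3K27ac covered the wider stretch. The median stretch covered from first to last peak was 1604 and 1807 bp in H3K27ac lists 1 and 2, and 1149 and 1342 bp in H3K9ac lists 1 and 2, so both H3K27ac lists lay above both H3K9ac lists. The median ratio within a region was 1.30-fold for list 1 of both marks, 1.13-fold for H3K27ac list 1 over H3K9ac list 2, 1.44-fold for H3K27ac list 2 over H3K9ac list 1 and 1.24-fold for list 2 of both marks. The H3K9ac stretch lay wholly inside the H3K27ac stretch in 40.5% to 63.1% of regions over these 4 pairings, and the reverse held in 5.59% to 16.1%. The mean log2 ratio of the pairings was 0.35, and it was 0.60 when the class was set without H3K9ac list 2. H3K27ac reached past H3K9ac on at least 1 side in most of the shared regions.

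Over whole lists the marks could not be separated by a test. With 2 lists against 2, the smallest p that an exact two-sided permutation test allows is 0.33, so no difference can pass 0.05. The median peak was 574 and 910 bp wide in the H3K27ac lists and 423 and 555 bp in the H3K9ac lists, a mean log2 ratio of H3K9ac over H3K27ac of -0.58 (exact permutation p = 0.33). The ratio was -0.91 without H3K27ac list 1, -0.24 without H3K27ac list 2 and -0.38 without H3K9ac list 1. The share of peaks at gene starts was 16.5% and 20.9% for H3K27ac and 12.1% and 27.1% for H3K9ac. The H3K9ac lists enclosed the H3K27ac lists on this measure, with a mean difference of 0.87 percentage points (exact permutation p = 1). The difference was -6.65 points without H3K9ac list 2 and 8.39 points without H3K9ac list 1. Overlap was also given as a Jaccard index, the shared base pairs of a pair of lists divided by their union. It was 0.453 between the H3K27ac lists and 0.154 between the H3K9ac lists, against 0.151 to 0.223 between lists of different marks. The H3K9ac lists were thus no more alike than lists of different marks. The mean index within marks was 0.12 above that between marks (exact one-sided permutation p = 0.33, also the smallest that test allows). This difference was -0.03 when either H3K27ac list was left out.

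Genes followed the regions. Of 21883 protein-coding genes, 6689 had both marks within 1 kb of a start (30.6%), 614 H3K27ac only (2.81%) and 273 H3K9ac only (1.25%). At 6501 of the 6689 genes (97.2%) a merged region at the start also carried both marks. At the rest, such as Tnfrsf19 and Mbp below, none did. Without 1 list, H3K27ac only covered 1025 and 1043 genes (H3K27ac lists 1 and 2 left out) and 1899 and 1631 (H3K9ac lists 1 and 2 left out), and H3K9ac only 457, 768, 736 and 1448 in the same order. A further 6242 had another pattern, such as a mark in 1 of its lists, and 8065 had no peak. The lists of genes below describe known roles. Their counts are to be read against these shares, and no test was made of a list.

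Genes of epithelial identity were marked almost without exception. Of 16, 15 carried both marks, none a single mark, and Krt20, a keratin of mature cells, lacked H3K9ac list 1. The median H3K27ac percentile of the list was 97.9 in list 1 and 98.3 in list 2, against 82.9 and 75.1 over all marked genes. Its median H3K9ac percentile was 99.6 and 98.7, against 80.5 and 85.2. Cdx2, the homeobox factor that sets intestinal fate, had H3K27ac percentiles of 85.6 and 99.7 and H3K9ac percentiles of 99.96 and 99.3. Hnf4a, a nuclear receptor of the absorptive programme, had 86.5 and 89.6 for H3K27ac and 99.3 and 97.6 for H3K9ac. Both factors were high in all 4 lists. Krt18, a keratin of simple epithelia, was the lowest, with 32.6 and 68.6 for H3K27ac and 53.2 and 75.3 for H3K9ac.

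Stem cell genes were split. Of 12, 7 carried both marks (Cdca7, Lrig1, Olfm4, Rnf43, Sox9, Tnfrsf19 and Znrf3) and 5 had other patterns. Lrig1, a brake on growth factor receptors, had H3K27ac percentiles of 97.6 and 80.8 and H3K9ac percentiles of 97.9 and 99.4. Rnf43, a ubiquitin ligase that removes Wnt receptors, had 87.7 and 79.3 for H3K27ac and 98.9 and 99.4 for H3K9ac. Olfm4, a secreted marker of crypt base cells, had 77.6 and 64.8 for H3K27ac and 61.0 and 88.5 for H3K9ac. Against the medians of marked genes given above, Olfm4 was lower in 3 of 4 lists, while Lrig1 and Rnf43 were higher in all 4. Lgr5, the Wnt-amplifying receptor that defines crypt base stem cells, had a peak in H3K9ac list 2 alone (percentile 43.5). Ascl2, a Wnt-driven stem cell factor, had H3K27ac in list 2 (13.9) and H3K9ac in list 1 (14.1), both low. The start of Lgr5 is taken here as both ends of the gene, as no start was listed for it.

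Genes of cell division mostly carried both marks, 11 of 16, and the other 5 lacked 1 or more lists. Their H3K9ac was the higher-ranked mark: the list's median percentile was 95.8 and 85.8 for H3K9ac and 75.5 and 48.0 for H3K27ac. Over all marked genes the same medians were 80.5 and 85.2 for H3K9ac and 82.9 and 75.1 for H3K27ac. Aurka, a mitotic kinase, had H3K27ac percentiles of 79.7 and 35.4 and H3K9ac percentiles of 96.7 and 97.6. Plk1, another mitotic kinase, had 26.0 and 50.3 for H3K27ac and 95.4 and 34.3 for H3K9ac, so its lists did not all keep that order. Pcna, the sliding clamp of DNA replication, was high throughout, with 98.5 and 87.6 for H3K27ac and 99.6 and 97.5 for H3K9ac. Myc, the growth regulator, was likewise at 88.1 or above in all 4 lists.

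Of 16 genes of fasting and lipid metabolism, 14 carried both marks and none a single mark. Cpt1a, the gate of fatty acid entry into mitochondria, had H3K27ac percentiles of 99.9 and 99.7 and H3K9ac percentiles of 82.7 and 99.6. Ppara, the nuclear receptor of the fasting response, had 98.8 and 99.7 for H3K27ac and 95.4 and 89.4 for H3K9ac. Pdk4, which spares glucose in fasting, and Acadm, of fatty acid oxidation, had H3K27ac in both lists and H3K9ac in list 1 only. Pdk4 stood at 96.3 and 99.7 for H3K27ac and 98.7 in H3K9ac list 1, and it had H3K9ac in all 6 lists of the other states.

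Genes of nutrient absorption carried both marks in 9 of 14. Slc5a1, the sodium-glucose transporter, had H3K27ac percentiles of 97.5 and 99.8 and H3K9ac percentiles of 99.9 and 83.3. Apoa1, the core protein of high-density lipoprotein, had 94.9 and 99.9 for H3K27ac and 99.6 and 99.8 for H3K9ac. Alpi, intestinal alkaline phosphatase, Apoa4 and the fructose carrier Slc2a5 had H3K27ac in both lists and H3K9ac in list 2 alone. Anpep, a brush border peptidase, was the 1 gene of this list with H3K9ac only, at 25.4 and 43.8, with the nearest H3K27ac peak 3008 bp from its start.

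Genes of secretory cells were rarely marked by both. Of 18 secretory genes 2 were (Fcgbp and Agr2, both made by goblet cells), and of 9 Paneth cell genes 1 was, the antimicrobial lectin Reg3b. Agr2 had H3K27ac percentiles of 70.3 and 49.2 and H3K9ac percentiles of 56.3 and 54.3. Atoh1, the factor that commits progenitors to the secretory lineage, had H3K27ac only, at 67.6 and 24.5, with the nearest H3K9ac peak 1262 bp away. Mmp7, the protease that activates Paneth cell defensins, also had H3K27ac only, at 4.16 and 24.8. Muc2, the main mucin of goblet cells, and Chga, of hormone-secreting cells, had no peak in any of the 4 lists. In bulk chromatin, fewer cells of a type and less acetylation per cell cannot be told apart. Defensin genes are close copies of one another, so absence of peaks there is uncertain.

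Genes of the regenerating epithelium had both marks in 2 of 11, Anxa2 and Yap1. Yap1, the Hippo pathway effector, had H3K27ac percentiles of 95.9 and 94.3 and H3K9ac percentiles of 96.8 and 68.0. Clu, the marker of revival stem cells, had H3K27ac only, at 75.1 and 26.3, with the nearest H3K9ac peak 4043 bp away. Ly6a, of the fetal-like state, had a peak in H3K27ac list 1 alone (38.5). The growth factor Areg had one in H3K27ac list 2 alone (28.6).

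Further lists held housekeeping genes and genes of other cells. Housekeeping genes had both marks in 13 of 20. Eef1a1, a translation elongation factor, had H3K27ac only, at 96.4 and 87.4, and had H3K9ac in 5 of the 6 lists of the other states. Immune genes had both marks in 0 of 15. Single marks among them included H3K27ac only at Ptprc (28.3 and 6.55) and H3K9ac only at Nkg7 (82.5 and 13.2). The number of them marked in a list ranged from 3 in H3K9ac list 2 to 6 in H3K27ac list 1 and H3K9ac list 1. Stromal genes had both marks in 0 of 14 and at most 4 marked in a list. Genes of other tissues had them in 1 of 14, at Mbp, the myelin gene, which had both marks in all lists of the other states as well. No start was listed for Mbp, so its marks were taken at both gene ends, and no merged region there carried both marks.

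**Figure D3:**
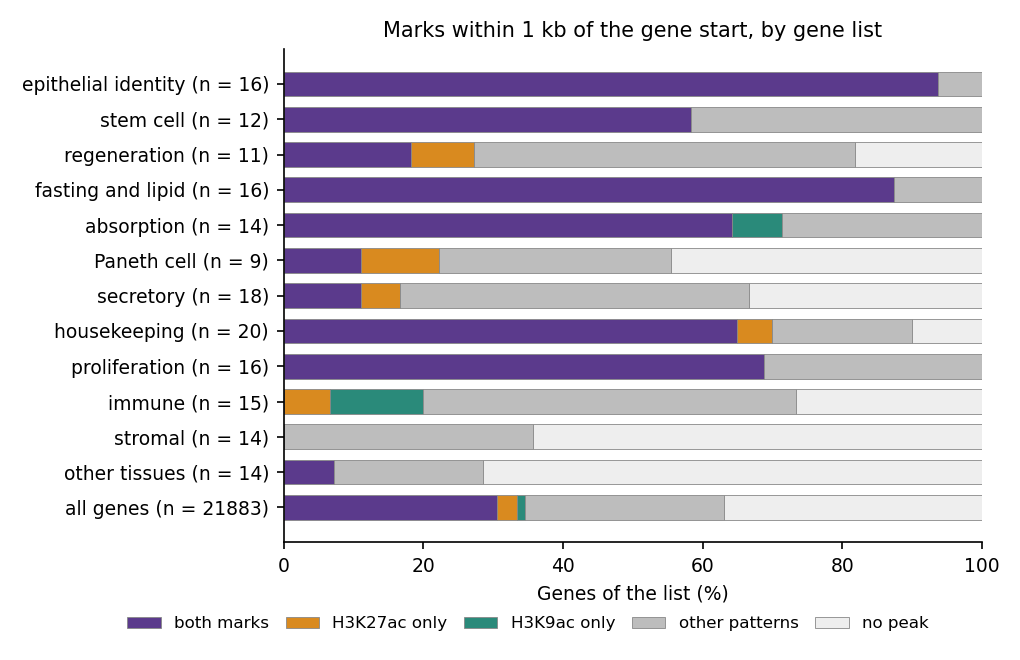
Share of the genes of each list (%, horizontal axis) by the marks within 1 kb of the start, with the number of genes beside each name. Both marks reach 15 of 16 genes of epithelial identity and 14 of 16 of fasting and lipid metabolism, against 30.6% of all genes, 2 of 18 secretory genes and 0 of 14 stromal genes.

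The highest-ranked genes with both marks included several of epithelial structure. The 10 were Efcab2, Elf3, Krt19, Mrps18b, Ppp1r10, Zfp36, Cldn7, Fosl2, Plpp2 and Vil1. Elf3, an ETS factor of epithelia, had H3K27ac percentiles of 99.9 and 99.7 and H3K9ac percentiles of 99.96 and 99.99, in a region of 11691 bp (chr1:135248151-135259841). Vil1, the actin-bundling villin of microvilli, had 99.4 and 99.7 for H3K27ac and 99.7 and 99.5 for H3K9ac. Krt19, a keratin, lay in a region of 10884 bp (chr11:100137591-100148474). Cldn7 encodes a tight junction claudin, Zfp36 an mRNA decay factor and Fosl2 a Fos-family factor. Mrps18b and Ppp1r10 share 1 marked region. In H3K27ac list 2, 1573 peaks share the score 3100, so the order among them there is not resolved.

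The highest-ranked genes with H3K27ac only mostly had H3K9ac elsewhere in the study. The 10 were Entpd8, Gm42166, Rnf5, Sp1, Tmem259, Zc3h12a, Zc3h12d, Gdf9, Uqcrq and Unc93a, and all stood at 98.3 or above in both H3K27ac lists. Each had H3K27ac in all 6 lists of the other states. H3K9ac was present at Entpd8, Zc3h12a and Zc3h12d in 6 of those 6 lists, at Sp1, Rnf5, Gdf9 and Uqcrq in 5, at Tmem259 in 4, at Unc93a in 3 and at Gm42166 in 1. Entpd8, an ectonucleotidase whose start is printed above, had an H3K9ac peak 1026 bp from its start. Zc3h12a, the ribonuclease Regnase, had one at 1030 bp, so both missed the 1 kb window narrowly. At Zc3h12a, Rnf5 and Gm42166 the merged region at the start reached an H3K9ac peak beyond the window and carried both marks, as at 21 of the 614 genes in all. Sp1, the factor that binds GC boxes, had none nearer than 5993 bp. Gdf9 and Uqcrq share 1 marked region.

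The highest-ranked genes with H3K9ac only stood lower. The 10 were Mindy3, Mmp17, Hsbp1, Tubgcp5, Uimc1, Mitf, Zc2hc1a, Rif1, Wdcp and Zfp551. Mindy3, a deubiquitinase, had H3K9ac percentiles of 98.6 and 93.7 and no H3K27ac peak within 7680 bp. Tubgcp5, of the gamma-tubulin ring, had 99.4 and 90.8, with H3K27ac 47626 bp away. Rif1, a regulator of replication timing and DNA repair, had 93.4 and 84.6, with H3K27ac 49734 bp away. H3K27ac was nevertheless present at Hsbp1, Tubgcp5, Uimc1, Zc2hc1a and Rif1 in 5 of the 6 lists of the other states, and at every one of the 10 in at least 1.

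Regions with H3K27ac only clustered near some epithelial genes. These regions were counted within 50 kb of a start and away from starts. Their median number was 4.5 for genes of epithelial identity (range 0 to 12) and 3 for stem cell genes (0 to 8). It was 2 for fasting and absorption genes, 1 for housekeeping genes and 0 for genes of cell division. It was 0 over all genes and 1 over the 6689 genes with both marks. Where no start was listed, both gene ends were used, which widens the stretch counted. A start was listed for 10 of the 16 genes of epithelial identity. Cdh1, the adhesion molecule E-cadherin, had 12 counted from both gene ends, Hnf4a 11 and Lrig1 8. Shroom3, which shapes the apical surface of epithelial cells, had the most of any gene, 14. Neighbouring genes share such regions, so these counts are not independent. Of all regions with H3K27ac only, 26.6% lay within 10 kb of a region with both marks (median distance 29.7 kb), and 14.5% of those with H3K9ac only did (median 77.9 kb).

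The highest-ranked regions away from starts were also listed for each class. Only starts of protein-coding genes were excluded, so these regions can lie at starts of noncoding genes. With both marks they were chr19:5840604-5852905, which overlaps Frmd8 22303 bp from its start, chr1:58794262-58796758 in Casp8, and chr6:124715184-124722515 over Phb2 and Ptpn6. All 3 had both marks in all other lists. With H3K27ac only they were chr10:24131352-24133134, 16155 bp from the start of Stx7, chr10:43309647-43313880 in Pdss2 and chr10:116873618-116877482 in Myrfl. All 3 had H3K27ac in the 6 lists of the other states, and H3K9ac in 5, 4 and 3 of them. With H3K9ac only they were chr5:114172859-114173546 in Acacb (percentiles 99.999 and 99.99), chr5:131519450-131519946 in Auts2 (99.9 and 99.7) and chr16:15642322-15643024 in Prkdc (99.9 and 99.4). These had H3K9ac in all 6 lists of the other states and H3K27ac in 0 of 6.

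Starts with both marks were rich in CG pairs. The CpG ratio, observed over expected from base content, had a median of 0.81 over 6394 starts with both marks (quartiles 0.65 and 0.94), 0.68 over 231 with H3K9ac only (0.44 and 0.84), 0.55 over 651 with H3K27ac only (0.24 and 0.81) and 0.24 over 7976 with no peak, against 0.57 over all 21262 starts. Starts with H3K27ac only were spread over both low and high ratios. All starts were then divided by this ratio into 3 parts of equal size. Among starts with H3K27ac in both lists, H3K9ac was in both lists for 43.7% in the low part, 65.9% in the middle part and 74.0% in the high part, and in neither for 23.3%, 6.95% and 3.95%. The order was the same where the lower H3K27ac percentile was above 50 (50.9%, 70.6% and 77.1% with H3K9ac in both lists) and where it was 50 or below (23.4%, 49.4% and 61.7%). The difference in median ratio between starts with both marks and with H3K27ac only, 0.26, was 0.085 without H3K9ac list 1 and 0.11 without H3K9ac list 2. CG content and rank each went with H3K9ac when the other was held within these bounds.

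**Figure D4:**
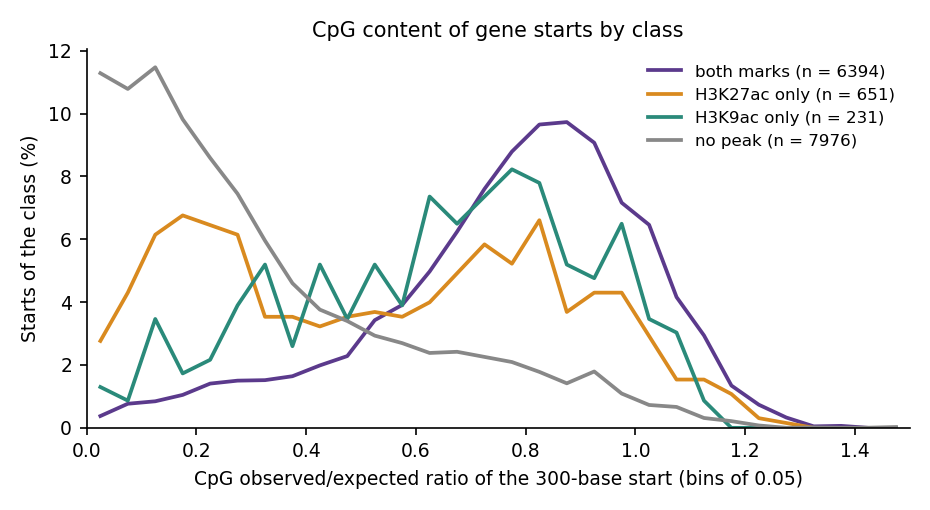
Share of the starts of each class (%, vertical axis) by CpG observed over expected ratio of the 300-base start (horizontal axis, bins of 0.05), with the number of starts in each class. Starts with both marks peak at high ratios (median 0.81), starts with no peak at low ratios (median 0.24), and starts with H3K27ac only spread over both (median 0.55).

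Short motifs were counted on both strands of the same 300 bases, without regard to overlap between motifs. The GC box GGGCGG was in 67.9% of starts with both marks, 49.9% with H3K27ac only and 58.4% with H3K9ac only, against 46.2% of all starts. The ETS core CCGGAAG was in 21.4%, 8.29% and 12.1%, against 11.6%. The TATA box TATAAA was in 6.02%, 9.52% and 6.93%, against 12.6%. The GATA site AGATAAG was in 1.44%, 5.22% (34 of 651) and 1.73% (4 of 231), against 2.64%. The CCAAT box, with its 5 letters as named, was in 38.0%, 40.1% and 30.3%, against 38.2%. The CDX site TTTATNG was in 6.44%, 8.29% and 6.93%, against 9.58%. Part of the HNF4 site, CAAAGTC, was in 3.50%, 5.53% and 4.76%, against 4.14%. The GC box stood above all starts in all 3 classes, most with both marks, and the GATA letters stood above all starts with H3K27ac only, while the CDX letters stood below in all 3. All starts include the 7976 with no peak, which had the CDX letters in 13.7% and the GATA letters in 3.79%. Bases C and G made up a median of 48.7% there, against 56.3% over all starts. Starts with other patterns had the CDX letters in 7.67% and the GC box in 54.0%. Standing above or below all starts is thus not particular to the 3 classes. The GC box and ETS letters hold CG pairs themselves, so they are not independent of the CpG ratio.

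The classes recurred to different degrees in the other states, taken over the same regions. Regions with both marks had both again in 68.5% in fed mice without tetracycline, 70.1% in fed mice with it and 58.8% in fasted mice with it. Regions with H3K27ac only kept that class in 27.8%, 28.9% and 31.4%, and those with H3K9ac only in 4.88%, 3.23% and 5.56%. Over all regions the same shares in fed mice without tetracycline were 5.15%, 5.13% and 0.198%. Without H3K27ac list 2 the share for H3K27ac only in that state was 11.7% and for H3K9ac only 9.45%. Without H3K9ac list 2 they were 45.1% and 0.555%. For H3K9ac only the share was 21.6% with lists of equal length, 18.0% with the upper 0.5 of each list by score and 8.43% with presence alone taken from that part. H3K27ac itself, in at least 1 list of that state, was at 79.9% of the regions with H3K27ac only, and H3K9ac was at 27.1% of those with H3K9ac only. Over all regions H3K27ac was at 23.6% and H3K9ac at 15.0%. H3K27ac was at 14.3% of the regions with H3K9ac only. H3K9ac was at 31.9% of the regions with H3K27ac only, so the 27.1% was not particular to H3K9ac only. At gene starts 23.9% of the regions with H3K27ac only had both marks in fed mice without tetracycline, against 3.03% of those away from starts. Over all regions the same shares were 44.9% at starts and 1.38% away, so a higher share at starts was not particular to this class. Genes were counted in the same way. Of the 614 genes with H3K27ac only, 201 (32.7%) had both marks in that state and 70 (11.4%) kept H3K27ac only. Of the 6689 genes with both marks, 5627 (84.1%) kept both. Over all genes, 35.7% had both marks in that state and 1.28% H3K27ac only. The 32.7% thus lay slightly below the share of all genes. The Jaccard index of the H3K9ac lists was 0.273 in that state, against 0.154 here, and the part of this in the counts was not tested.

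**Figure D5:**
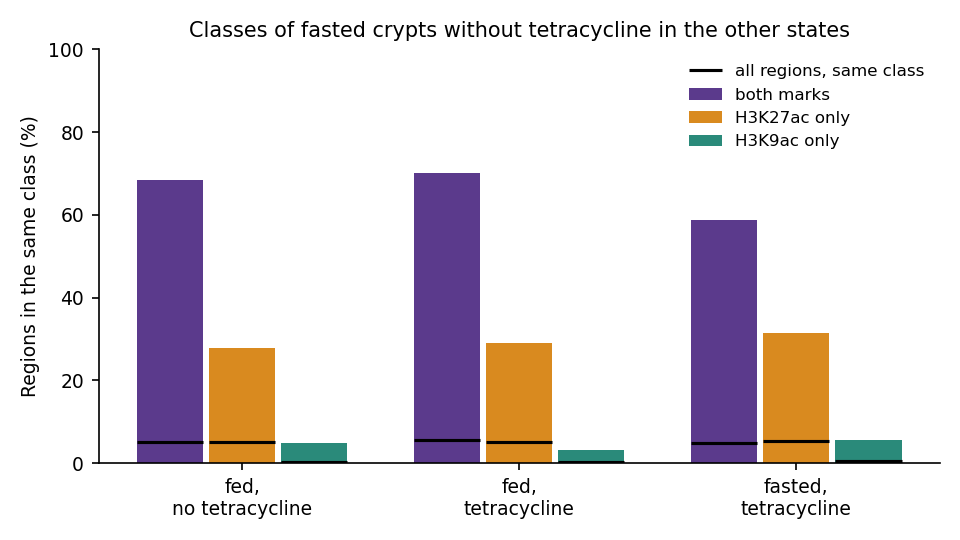
Share of regions of each class in fasted mice without tetracycline that fell in the same class in each of the 3 other states (%, vertical axis), with a black line for the share of all regions in that class. Both marks recurred in 58.8% to 70.1%, H3K27ac only in 27.8% to 31.4% and H3K9ac only in 3.23% to 5.56%.

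Over all 3 other states together, 3739 regions with both marks (43.5%) had both marks in every list, and 88.8% of these lay at gene starts. Of the regions with H3K27ac only, 805 (6.04%) had H3K27ac in all and H3K9ac in none of the 6 other lists of each mark. Of those, 445 lay between genes, 346 inside genes and 14 at starts, among them the chemokine gene Ccl20. Of the regions with H3K9ac only, 9 (0.676%) had H3K9ac in all and H3K27ac in none of the other lists, 8 inside genes, 1 between genes and 0 at starts. They include the 3 regions in Acacb, Auts2 and Prkdc above. H3K9ac was in no other list at 717 of the 1332 regions with H3K9ac only (53.8%), whereas H3K27ac was in no other list at 885 of the 13330 with H3K27ac only (6.64%).

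Side by side, the 4 states gave 8599 (fasted without tetracycline), 9280 (fed without tetracycline), 9906 (fed with) and 8798 (fasted with) regions with both marks, and 1332, 491, 602 and 1891 with H3K9ac only. Of H3K27ac regions in both lists, 27.6%, 33.3%, 36.2% and 30.7% had H3K9ac in both lists. Each state has 1 sample for each mark and lists of unequal size, so these values were not tested.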

How the data were processed

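Processing bears on the classes as follows. The authors deposited 1 peak list per library with a score per peak and a peak name beginning with MACS, per the file headers and columns; lists hold no score under 50, and their names say the data were downsampled. FastQC, Bowtie, SAMtools and mm10 are named per the submitters' processing notes, and the MACS version, the cutoff and the use of IgG libraries are not given in the sources used here. The score was used only to rank peaks within a list. Peaks were merged and classed in Python 3.11.15 with numpy 2.4.6, pandas 2.3.3 and scipy 1.17.1, and the classing was tested on simulated data. Gene starts came from RefSeq tables (GRCm38.p6): 17491 of 21883 protein-coding genes had a start (79.9%), and both gene ends served for the other 4392. Of 176 listed genes 175 matched by symbol; values of some single genes are not reported here. Named genes were those of the lists and the 10 of each class with the highest of their lowest percentile over the lists of the marks present; regions followed the same rule, 3 at starts and 3 away. The classes, lists and rules were chosen with earlier results of these data known. Lists, overlaps, windows and peaks used were varied one at a time. IgG libraries were not analysed here.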

Additional observations from a re-analysis of the deposited data

How the results depend on the processing

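Of the 133 values recomputed with all lists kept, 90 were classed as the same and 1 reversed. Counts had to stay within 1.5 times, and most other values within the spread between lists of the same number. Start share of peaks, median peak width and separation by mark were classed by sign alone. The log2 median width thus counted as the same, though it went from -0.58 to -1.52 (equal length) and -1.23 (upper 0.5 by score). With peaks of at least 500 bp the start share of peaks also did, though it rose by more than its spread. The cause of the changes was not tested. With each list cut to equal length by score, regions with both marks numbered 5002 and H3K9ac only 596, and the shares at gene starts were 79.5% (both), 9.58% (H3K27ac only) and 42.8% (H3K9ac only). There the share of peaks at starts reversed to -2.50 points, the log2 width ratio was 0.32, the CpG difference 0.14, and 21.6% of H3K9ac-only regions recurred in fed mice. With the upper 0.5 of each list by score, regions numbered 4821 (both), 8814 (H3K27ac only) and 656 (H3K9ac only), with shares at starts of 79.6%, 10.2% and 58.5%. Genes then numbered 4351 with both marks and 418 with H3K9ac only, the CpG difference was 0.13 and the H3K9ac-only recurrence 18.0%. With presence from the upper 0.5 and absence from the whole list, regions numbered 4833, 5868 and 249, with 79.7% and 32.5% at starts for both marks and H3K9ac only. Genes numbered 4351, 320 and 85, the width ratio was 0.27 and the H3K9ac-only recurrence 8.43%. With peaks of at least 500 bp, H3K9ac-only regions numbered 430, the shares at starts were 76.3% (both) and 41.4% (H3K9ac only), the width ratio 0.32 and the CpG difference 0.24. Known starts alone, added after seeing the data, gave 57.8% and 14.6% for the same classes. Both ends of every gene, also added then, gave 8.39% for H3K27ac only. A window of 2.5 kb gave 12.2% for H3K27ac only, 25.6% for H3K9ac only and 424 genes with H3K9ac only. An overlap of 0.5 gave 24.2% for H3K9ac only, and bridged gaps 13.6% with a width ratio of 0.38.

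Leaving out 1 list, or both lists of a number, gave 8807 to 16028 regions with both marks, 17299 to 51794 with H3K27ac only and 1628 to 80947 with H3K9ac only. Shares at starts were 47.1% to 68.6%, 4.35% to 11.6% and 3.13% to 34.9%. Genes numbered 6873 to 8428, 1025 to 2561 and 457 to 2194. Listed genes with both marks numbered 75 to 89. The difference in share of peaks at starts ran from -6.65 to 8.39 points, the log2 median width from -0.91 to -0.24, the separation by mark from -0.034 to 0.30, the width ratio within regions from 0.26 to 0.60 and the CpG difference from 0.085 to 0.34. Recurrence in fed mice ran from 47.1% to 73.4%, 11.7% to 45.1% and 0.555% to 9.45%. The shares of regions of one mark that have the other, with lists left out, were added after seeing the data. No paired analysis was possible because each group has 1 sample and the numbers of its lists appear only in the deposited names. Depth is unknown, so absence of a peak limits every single-mark class.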

Other observations

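Between the 3 classes lay regions with H3K27ac in both lists and H3K9ac in 1. There were 5299 with H3K9ac in list 1, of which 24.1% lay at gene starts, and 3883 with H3K9ac in list 2, of which 25.7% did. Regions with H3K9ac in both lists and H3K27ac in 1 were fewer, 281 with list 1 and 866 with list 2, and 55.5% and 56.8% of them lay at gene starts. In their share at starts these sets stood between the regions with both marks and those with a single mark.

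Starts of long noncoding RNA genes, away from coding starts, held 2.65% of the regions with both marks, 2.94% of those with H3K27ac only and 1.88% of those with H3K9ac only, against 1.68% of all regions. Regions at coding starts could not be counted but remain in these totals. They made up 69.4%, 6.55% and 19.1% of the 3 classes and 8.67% of all regions. The shares therefore do not rank the classes.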
